A study of Homo sapiens with 4 samples.

Results

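Expression of 9 genes that encode subunits of the Polycomb repressive complexes was followed through the hematopoietic differentiation of a human iPSC line. The genes were EZH1, EZH2, EED, SUZ12, JARID2, CBX2, CBX7, BMI1 and RING1, chosen by symbol from the 58274 genes of the deposited table, and each was listed on a single row. RNA-seq had been performed on 4 populations of BC1, an induced pluripotent stem cell line, with 1 library for each. These were the undifferentiated BC1 cells, the APLNR+ mesoderm cells of day 2, the CD31+CD34+ hemogenic endothelial progenitors (HEPs) of day 5 and the CD43+ hematopoietic progenitor cells (HPCs) of day 8. Differentiation began with activin A and BMP4 and continued with VEGF and bFGF in a chemically defined medium. Stage and day changed together at every step and cannot be told apart. Cytokines changed with them too, except between HEPs and HPCs, which both had VEGF and bFGF. All 4 populations came from 1 cell line and no replicates were used here, so no test between populations was possible.

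Polycomb proteins are chromatin repressors that keep developmental genes silent in pluripotent cells and in lineages where they are not needed. Polycomb repressive complex 2 (PRC2) methylates lysine 27 of histone H3 through EZH1 or EZH2, with EED and SUZ12 as core partners and proteins such as JARID2 as accessory subunits. Polycomb repressive complex 1 (PRC1) ubiquitinates histone H2A through RING1 or RNF2, pairs that enzyme with a PCGF protein such as BMI1 and, in its canonical form, reads the methyl mark through a CBX protein such as CBX2 or CBX7.

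The values are FPKM, in which the fragments of a gene are divided by transcript length and by library size, so that they set genes of different length on 1 scale. A gene is said to have risen or fallen where log2(FPKM + 1) changed by at least 1 between a pair of populations, a scale that understates the changes of low genes. The intervals are 95% Clopper-Pearson intervals on approximate fragment counts recovered from the steps between FPKM values, and they cover counting error only, not differences between cultures. The depth recovered was 19620000 mapped fragments for BC1, 21400000 for APLNR+ cells, 23600000 for HEPs and 21520000 for HPCs. At this depth 1 FPKM of a gene with a transcript of 2000 bases was 34.2 to 40.6 fragments.

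The labels were checked against marker genes before the subunits were read. POU5F1, a pluripotency factor, stood at 1997 FPKM in BC1, 573 in APLNR+ cells, 1.87 in HEPs and 0.235 in HPCs. SOX2 and NANOG, also pluripotency factors, went from 172 and 23.6 FPKM in BC1 to 0 and 0.00945 in HPCs. LIN28A and DNMT3B, also high in pluripotent cells, went from 363 and 513 FPKM in BC1 to 92.9 and 78.7 in HPCs. APLNR, the apelin receptor used to name the mesoderm cells, peaked at 1073 FPKM in the APLNR+ library. PECAM1 and CD34, the genes of the surface proteins that name the HEPs, were at 93.1 and 102 FPKM there and at 126 and 42.6 FPKM in HPCs, and SPN, which encodes CD43, was highest in HPCs at 92.4 FPKM. PTPRC, the pan-leukocyte gene of CD45, was at or below 0.0349 FPKM in all 4 libraries.

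All 9 subunit genes were detected at more than 1 FPKM in every library, and they differed widely in how much they moved. Between the highest and the lowest library the FPKM differed 8.20-fold for CBX2, 5.95-fold for JARID2, 3.55-fold for CBX7, 3.11-fold for BMI1 and 3.06-fold for EZH1. The ratio was 1.69 for SUZ12, 1.49 for RING1, 1.32 for EED and 1.10 for EZH2. JARID2 and CBX2 were therefore the most variable subunits, and EZH2, the main methyltransferase, was nearly level.

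**Figure D1:**
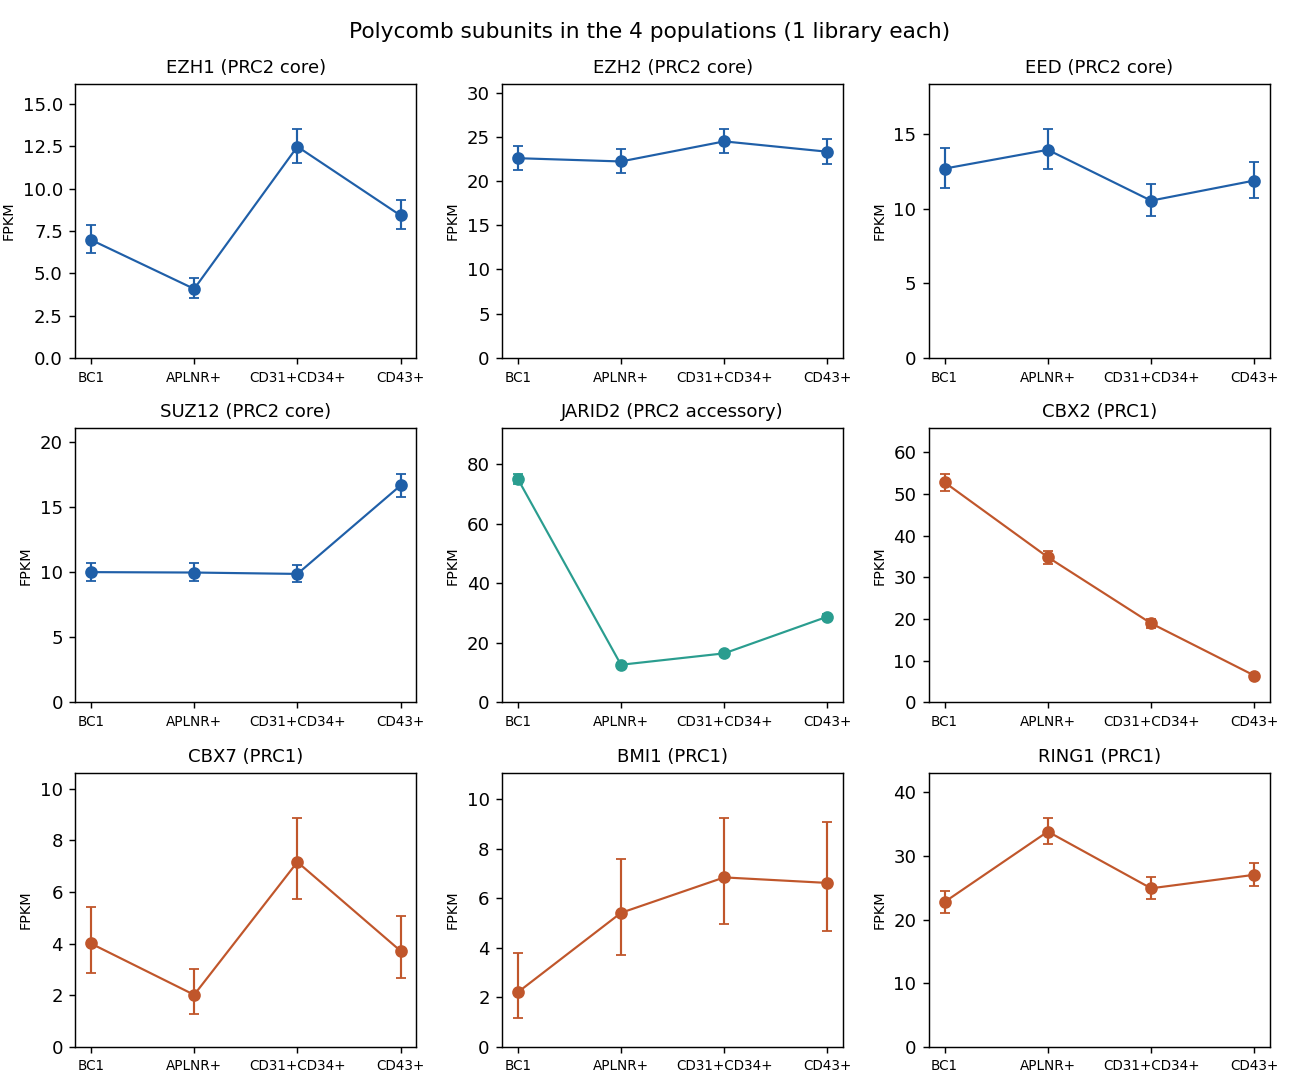
FPKM (vertical axes, linear and starting at 0) of the 9 Polycomb subunit genes in BC1, APLNR+ cells, CD31+CD34+ HEPs and CD43+ HPCs, 1 library each. Points are the deposited values, bars are 95% counting intervals, and lines join populations in order of day; JARID2 drops from 75.2 to 12.6 FPKM at the first step, CBX2 falls at each step from 52.8 to 6.44 FPKM, and EZH2 stays between 22.2 and 24.5 FPKM.

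Of the 9 genes, 5 were called in at least 1 of the 4 comparisons (the 3 consecutive steps and BC1 against HPCs), a share close to the 52.2% of all 17137 genes that reached 1 FPKM in any library. From BC1 to APLNR+ cells, BMI1 rose and JARID2 fell, against 9.15% of all genes that rose and 9.32% that fell. From APLNR+ cells to HEPs, EZH1 and CBX7 rose and no subunit fell, where 13.0% of all genes rose and 11.4% fell. From HEPs to HPCs, CBX2 fell and no subunit rose, where 13.5% of all genes fell and 7.63% rose. Over the whole course from BC1 to HPCs, BMI1 rose while JARID2 and CBX2 fell, against 15.2% and 18.9% of all genes. The median change of the 9 genes on the log2 scale was -0.02, 0.13, -0.04 and 0.04 in these comparisons, beside 0.00, 0.01, -0.08 and -0.06 for all genes. The calls belonged to different members at each step. These comparisons share libraries, so that the low value of a gene in 1 library enters more than 1 of them.

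**Figure D2:**
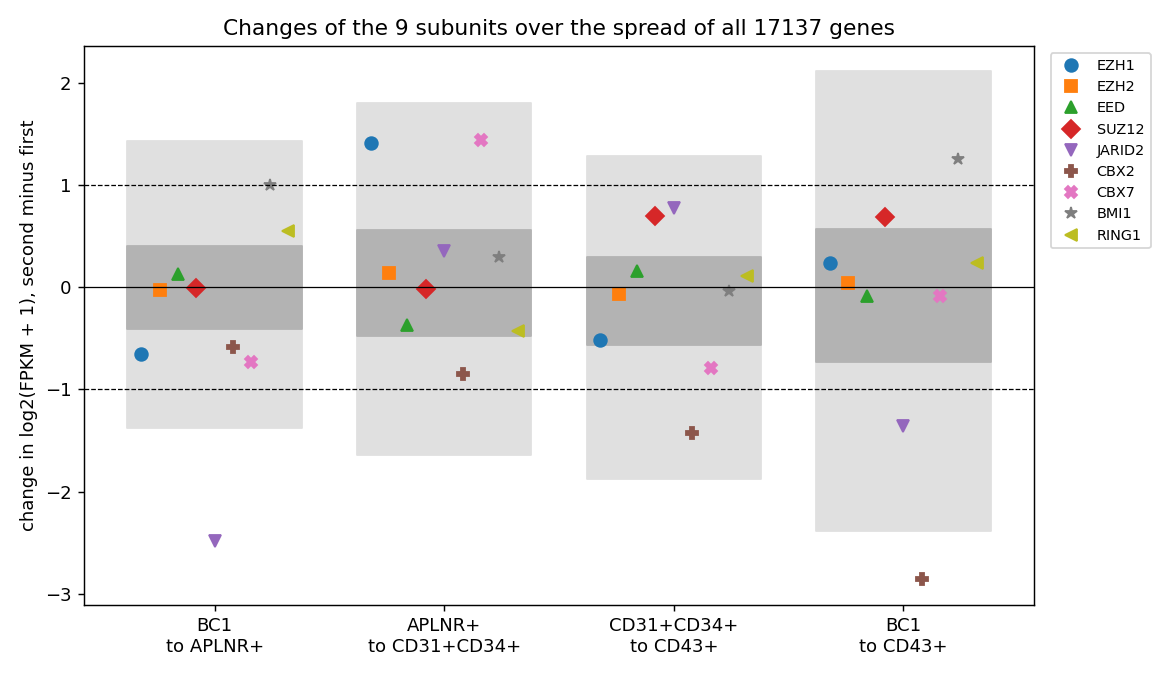
Change in log2(FPKM + 1), second population minus first (vertical axis), of the 9 subunit genes in the 4 comparisons (horizontal axis). Dark and light bands hold the central 50% and 90% of all 17137 genes, and dashed lines mark a change of 1 either way; JARID2 lies below the light band at the first step and CBX2 lies below it from BC1 to CD43+ HPCs.

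The promoters of 3 of these genes are shown first, because EZH1 and CBX7 had the most similar profiles of any pair of subunits and because SUZ12 and EZH1 hold a match to a motif of the E2F type. E2F proteins are cell-cycle transcription factors whose sites lie in many promoters of proliferation genes. The sequences are RefSeq promoter windows on GRCh38.p14, written 5′ to 3′ on the transcribed strand, cut to the 200 bases that end 51 bases before the annotated start. Capitals mark the motif match. The EZH1 stretch is chr17:42745091-42745290 (minus strand), that of CBX7 is chr22:39152731-39152930 (minus strand) and that of SUZ12 is chr17:31936757-31936956 (plus strand).
EZH1: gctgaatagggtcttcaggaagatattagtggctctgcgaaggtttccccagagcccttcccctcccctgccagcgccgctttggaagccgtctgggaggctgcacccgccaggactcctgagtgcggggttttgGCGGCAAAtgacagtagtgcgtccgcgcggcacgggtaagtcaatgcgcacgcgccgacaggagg
CBX7: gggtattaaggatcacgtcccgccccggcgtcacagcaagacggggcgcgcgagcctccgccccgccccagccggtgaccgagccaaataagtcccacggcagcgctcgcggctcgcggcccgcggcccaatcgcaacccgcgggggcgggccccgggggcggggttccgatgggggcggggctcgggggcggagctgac
SUZ12: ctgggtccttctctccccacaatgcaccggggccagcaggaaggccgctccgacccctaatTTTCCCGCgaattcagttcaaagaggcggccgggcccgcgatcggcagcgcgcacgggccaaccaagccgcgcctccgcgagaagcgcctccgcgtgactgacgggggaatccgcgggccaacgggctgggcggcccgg
The motifs searched were TTTCGCGC, TTTGGCGC, TTTCCCGC and TTTGCCGC on both strands of windows of 250 bases before and 50 from the start. EZH1 held TTTGCCGC on the minus strand of its window, in a stretch beginning 115 bases upstream, and SUZ12 held TTTCCCGC 189 bases upstream. EZH2 held TTTGGCGC at base 2 of the transcript in 1 of its windows. In all, 3 of the 8 members with a window held a match, beside 3.99% of all 27305 genes with a window. That share was not matched to the members by GC content or by number of windows, so an excess among members is not shown. The GC content of the whole window was 67.0% for EZH1, 77.7% for CBX7 and 73.0% for SUZ12, above the median of 58.7% over all windows. Of these 3 members with a match, EZH2 and SUZ12 were not called in any comparison and EZH1 was called at 1 step. A match of letters is a description and does not show that a factor binds there.

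Among the PRC2 core genes, EZH2 was the steadiest. EZH2 (ENSG00000106462, chr7:148807383-148884321 on GRCh38, as are all positions of genes given here, minus strand) encodes the methyltransferase that predominates in dividing cells. It stood at 22.6 FPKM in BC1, 22.2 in APLNR+ cells, 24.5 in HEPs and 23.3 in HPCs. The ratio of HPCs to BC1 was 1.03 (0.948 to 1.12), an interval that includes 1. In each library EZH2 was above about 3 in 4 of the genes kept, at percentiles between 74.7 and 76.6.

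EZH1, the paralog of EZH2 that is known from resting and differentiated cells, moved more. EZH1 (ENSG00000108799, chr17:42700275-42745049, minus strand) was at 6.98 FPKM in BC1, 4.08 in APLNR+ cells, 12.5 in HEPs and 8.42 in HPCs. The APLNR+ library was the lowest and the HEP library the highest. From APLNR+ cells to HEPs EZH1 rose by 1.41 on the log2 scale, a ratio of 3.06 (2.60 to 3.63), and the other steps, at -0.65 and -0.52, were not called. With EZH2 level, the ratio of EZH2 to EZH1 followed EZH1. It was 3.24 (2.84 to 3.70) in BC1, 5.45 (4.66 to 6.40) in APLNR+ cells, 1.96 (1.78 to 2.16) in HEPs and 2.77 (2.47 to 3.12) in HPCs. EZH1 thus supplied 15.5% of the summed EZH FPKM in APLNR+ cells and 33.8% in HEPs, with EZH2 the larger share throughout. In bulk RNA a change of this kind cannot tell fewer or more expressing cells from less or more RNA per cell, here and for all genes below.

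EED, which binds the methyl mark and stimulates the enzyme, and SUZ12, the scaffold of the complex, were not called in any comparison. EED (ENSG00000074266, chr11:86244544-86278813, plus strand) was at 12.7, 14.0, 10.6 and 11.9 FPKM in BC1, APLNR+ cells, HEPs and HPCs. SUZ12 (ENSG00000178691, chr17:31937018-32001045, plus strand) was at 9.99, 9.96 and 9.85 FPKM in the first 3 populations and at 16.6 FPKM in HPCs. Its last step was 0.70 on the log2 scale, a ratio of 1.69 (1.55 to 1.84) that excludes no change by counting error but does not reach the threshold. The ratio of EZH2 to SUZ12 was accordingly 2.26, 2.23 and 2.49 in the first 3 populations and 1.40 (1.30 to 1.52) in HPCs. SUZ12P1, a pseudogene copy of SUZ12, was listed at 16.0, 13.3, 14.4 and 23.8 FPKM, above SUZ12 in every library, and reads of the shared sequence may be split between them, so the SUZ12 levels are uncertain. RBBP4 and RBBP7, the histone-binding partners of the core, were not called in any comparison either, with 120, 116, 100.3 and 123 FPKM for RBBP4.

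JARID2, an accessory subunit that helps to bring PRC2 to its targets in pluripotent cells, changed most in a single step. JARID2 (ENSG00000008083, chr6:15246296-15522040, plus strand) was at 75.2 FPKM in BC1, 12.6 in APLNR+ cells, 16.5 in HEPs and 28.8 in HPCs. BC1 stood far above the other 3 populations. From BC1 to APLNR+ cells JARID2 fell by 2.48 on the log2 scale, and the ratio of the 2 libraries was 0.168 (0.159 to 0.178). This change was larger than that of 96.8% of all genes. The later steps, 0.36 and 0.77, went up without a call, and HPCs remained at 0.383 (0.368 to 0.399) of BC1, a fall of 1.35 on the log2 scale. JARID2 therefore moved from the 92.8th percentile of the genes kept in BC1 to the 63.2nd in APLNR+ cells.

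The position of JARID2 relative to the PRC2 core changed as well. Its ratio to EZH2 was 3.33 (3.12 to 3.56) in BC1, 0.569 (0.526 to 0.616) in APLNR+ cells, 0.673 (0.627 to 0.721) in HEPs and 1.24 (1.15 to 1.32) in HPCs. Its ratio to SUZ12 was 7.52, 1.27 (1.17 to 1.38), 1.67 and 1.73 in order of day. JARID2 thus stayed above SUZ12 in every library and went below EZH2 in APLNR+ cells and HEPs. The order against SUZ12 leaves out SUZ12P1, at 16.0, 13.3, 14.4 and 23.8 FPKM. With SUZ12P1 counted as SUZ12, JARID2 would be the higher in BC1 alone. The ratio of JARID2 to AEBP2, its partner in the same PRC2 subtype, was 5.92, 1.73, 1.39 and 3.01. AEBP2 was at 12.7, 7.29, 11.8 and 9.57 FPKM and was not called. The antisense gene JARID2-AS1 had at most 0.516 FPKM.

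The accessory subunits of the other PRC2 subtype behaved in different ways. MTF2, a Polycomb-like protein, was at 38.6, 28.1, 35.6 and 30.4 FPKM and was not called, like its relative PHF1 at 22.9, 31.2, 51.8 and 38.7 FPKM. PHF19, the remaining Polycomb-like gene, was at 9.95, 5.31, 26.2 and 25.8 FPKM and rose by 2.11 on the log2 scale from APLNR+ cells to HEPs. LCOR, whose locus also encodes the PRC2 partner PALI1, was at 2.38, 2.82, 11.7 and 64.3 FPKM and rose at each of the last 2 steps, while EPOP was listed at 0 in all 4 libraries. The table gives 1 value for the LCOR locus, so its products cannot be told apart. The BC1 library thus had JARID2 as the highest of the accessory genes listed, and the HPC library had LCOR.

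CBX2 showed the widest range of the PRC1 members. CBX proteins hold canonical PRC1 on chromatin, and CBX2 also compacts nucleosomes. CBX2 (ENSG00000173894, chr17:79778132-79787983, plus strand) was at 52.8 FPKM in BC1, 34.9 in APLNR+ cells, 19.0 in HEPs and 6.44 in HPCs. Each population was lower than the one before it. The ratios of the consecutive steps were 0.660, 0.545 and 0.339 (0.300 to 0.382), and only the last of them, a fall of 1.43 on the log2 scale, was called. Over the whole course CBX2 fell by 2.85, to 0.122 (0.109 to 0.136) of BC1, more than 93.9% of all genes changed. Its percentile among the genes kept went from 89.4 to 50.4.

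CBX7, a family member known from stem and progenitor cells, had another profile. CBX7 (ENSG00000100307, chr22:39120167-39152674, minus strand) was at 4.01 FPKM in BC1, 2.02 in APLNR+ cells, 7.16 in HEPs and 3.72 in HPCs. The HEP library was the highest. CBX7 rose by 1.44 on the log2 scale from APLNR+ cells to HEPs, a ratio of 3.55 (2.21 to 5.92), and HPCs were at 0.928 (0.586 to 1.47) of BC1. The width of the first interval depends on the transcript length assumed. With the median transcript of 784 bases CBX7 gave 22.6 to 85.2 approximate fragments, and with the longest, of 4081 bases, the interval was 2.99 to 4.24. An antisense gene, AL031846.2, covers 17.9% of the exonic bases of CBX7 and had at most 0.559 FPKM.

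The proportions of 4 CBX genes changed with these members. CBX2 made up 79.4% of the summed FPKM of CBX2, CBX6, CBX7 and CBX8 in BC1, 66.2% in APLNR+ cells, 54.9% in HEPs and 24.6% in HPCs. CBX7 made up 6.02%, 3.83%, 20.7% and 14.2%. In HPCs the largest share of the 4 was that of CBX6, 50.8%, and CBX8 had 10.3%. CBX6 and CBX8 were not called in any comparison, with 8.58 and 1.08 FPKM in BC1 and 13.3 and 2.71 FPKM in HPCs. The ratio of CBX2 to CBX7 was 13.2 (9.71 to 18.4) in BC1, 17.3 (11.4 to 27.4) in APLNR+ cells, 2.65 (2.12 to 3.34) in HEPs and 1.73 (1.25 to 2.46) in HPCs. The 4 genes summed to 66.5, 52.6, 34.6 and 26.2 FPKM, so their total also declined.

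**Figure D3:**
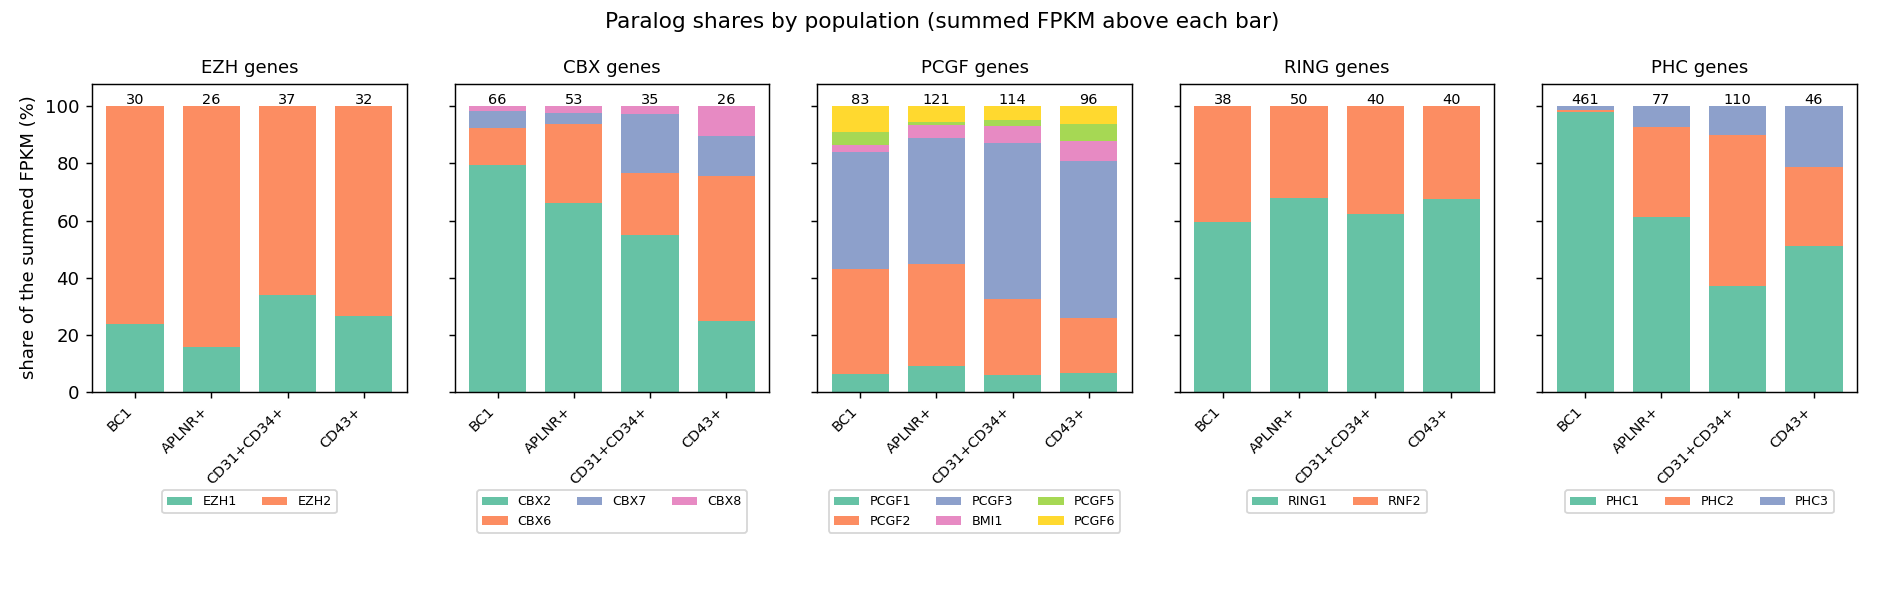
Share of each paralog in the summed FPKM of the genes drawn (vertical axis, %) in the 4 populations, 1 library each, for the EZH, CBX (4 genes), PCGF, RING and PHC families, with the summed FPKM above each bar. CBX2 shrinks from 79.4% to 24.6% of the 4 CBX genes, and the shares of RING1 stay between 59.3% and 67.8%. PHC1 goes from 98.0% of the PHC family in BC1 to 36.9% in HEPs and 51.0% in HPCs.

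BMI1, also called PCGF4, is the PCGF subunit known for the self-renewal of blood stem cells. BMI1 (ENSG00000168283, chr10:22321211-22331484, plus strand) was at 2.20 FPKM in BC1, 5.42 in APLNR+ cells, 6.85 in HEPs and 6.62 in HPCs. In this row BC1 was the lowest library and the other 3 lay close together. BMI1 rose from BC1 to APLNR+ cells by 1.0 on the log2 scale, just past the threshold, with a ratio of 2.46 (1.25 to 5.16), and from BC1 to HPCs by 1.25, with a ratio of 3.0 (1.55 to 6.24). With its longest transcript, of 3428 bases, in place of the median of 544, the first interval was 2.01 to 3.01. The first of these rises was lost with median-of-ratios scaling, and both were lost with a pseudocount of 5 FPKM. The gene shares 23.3% of its exonic bases with the readthrough gene COMMD3-BMI1, listed at 2.90, 3.21, 8.24 and 10.5 FPKM. With the readthrough added the change from BC1 to APLNR+ cells was 0.66 and no longer called. The change from APLNR+ cells to HEPs was then 0.74, so the later libraries no longer lay close together.

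BMI1 was by its own row a minor PCGF gene in all 4 populations. Its share of the summed FPKM of the 6 PCGF genes was 2.64%, 4.46%, 6.03% and 6.91%, or 5.91%, 6.92%, 12.4% and 16.1% with the readthrough gene added to it. PCGF3, a subunit of variant PRC1, held 40.7% to 55.1%. PCGF2, the closest paralog of BMI1 and its alternative in canonical PRC1, went from 37.1% to 19.4%. The ratio of BMI1 to PCGF2 was 0.0712 (0.0372 to 0.124) in BC1, 0.126 in APLNR+ cells, 0.228 in HEPs and 0.355 (0.248 to 0.495) in HPCs. These ratios leave out the readthrough gene, which was at 10.5 FPKM in HPCs, beside 18.6 FPKM for PCGF2. PCGF2 was above BMI1 in each library. PCGF1, PCGF5 and PCGF6, which serve variant PRC1, held 6.37%, 5.89% and 6.27% in HPCs.

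RING1, a catalytic subunit of PRC1, moved less than CBX2, CBX7 and BMI1. RING1 (ENSG00000204227, chr6:33208495-33212722, plus strand) was at 22.8, 33.8, 24.9 and 27.02 FPKM, and the APLNR+ library was the highest. Its first step was 0.55 on the log2 scale, a ratio of 1.49 (1.35 to 1.64), and it was not called in any comparison. Its paralog RNF2 was at 15.6, 16.0, 15.2 and 13.0 FPKM. RING1 supplied 59.3%, 67.8%, 62.1% and 67.5% of the pair.

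The order of the 9 levels changed between populations, and some neighbours in it could not be separated by counting error. The places of SUZ12 and BMI1 are those of their own rows, without SUZ12P1 or COMMD3-BMI1. Counting error was taken with the median transcript, of 544 bases for BMI1 and 784 for CBX7, and not with the longest. Whether BMI1 and CBX7 separate from their neighbours therefore depends on the length assumed. In BC1 the order was JARID2, CBX2, RING1, EZH2, EED, SUZ12, EZH1, CBX7 and BMI1, with no separation of RING1 from EZH2 or of CBX7 from BMI1. In APLNR+ cells it was CBX2, RING1, EZH2, EED, JARID2, SUZ12, BMI1, EZH1 and CBX7, with no separation of CBX2 from RING1, EED from JARID2 or BMI1 from EZH1. HEPs had RING1, EZH2, CBX2, JARID2, EZH1, EED, SUZ12, CBX7 and BMI1, where RING1 and EZH2, EED and SUZ12, and CBX7 and BMI1 were not separated. HPCs had JARID2, RING1, EZH2, SUZ12, EED, EZH1, BMI1, CBX2 and CBX7, where JARID2 and RING1, EZH1 and BMI1, and BMI1 and CBX2 were not separated. CBX2 went from second place in BC1 to eighth in HPCs, and RING1 and EZH2 were neighbours in all 4.

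Profiles were also compared by the root mean square difference of centred log2(FPKM + 1) over the 4 libraries, which is a description over few points. The closest pair of members was EZH1 and CBX7, at 0.125, which share the low value in APLNR+ cells and the high value in HEPs. The most distant pair was CBX2 and BMI1, at 1.51. Over the 9602 protein-coding genes with a mean of at least 5 FPKM, the profiles nearest to CBX2 were those of ALCAM, SPINT1 and NECTIN3, and 36 genes lay within 0.25. Those nearest to JARID2 were SLAIN1, PYGL and AIG1, with 1 gene within 0.25. For CBX7 they were KIF13A, HBP1 and UTRN, for EZH1 they were SOX8, MKNK1 and MAP2K5, and for BMI1 they were DPY19L1, HERPUD2 and ZNF316. Within 0.25 lay 137 genes for CBX7, 209 for EZH1 and 318 for BMI1. KIF13A was at 0.062 from CBX7 and SOX8 at 0.043 from EZH1, both closer than EZH1 and CBX7 were to each other. The flatter members had many near neighbours, 2413 genes for EZH2, 2263 for EED, 1506 for RING1 and 829 for SUZ12. FAF2, TXNL4B and VKORC1 were nearest to EZH2, PCBP1, CNOT7 and UTP11 to EED, IFRD1, ATP6V1H and ANP32A to RING1, and GRK6, PRUNE1 and WASHC2C to SUZ12. JARID2 had the fewest near neighbours of the 9.

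Of 33 further subunits of PRC2 and PRC1, 32 reached 1 FPKM and 12 were called in at least 1 comparison, 37.5% against 52.2% of all genes kept. In the 3 consecutive steps 5, 4 and 2 of them rose, where 9.15%, 13.0% and 7.63% of all genes did. At these steps 2, 1 and 2 fell, where 9.32%, 11.4% and 13.5% of all genes did. From BC1 to HPCs 6 rose and 4 fell, beside 15.2% and 18.9% of all genes, with a median change of 0.05. The largest falls were those of PHC1, AUTS2 and KDM2B. PHC1, a polyhomeotic protein that joins PRC1 particles, was at 452 FPKM in BC1, 47.4 in APLNR+ cells, 40.7 in HEPs and 23.3 in HPCs, a fall of 4.22 on the log2 scale. Its paralog PHC2 was at 3.52, 24.5, 58.4 and 12.8 FPKM and rose at the first 2 steps before falling at the last. PHC1 made up 98.0% of the PHC family in BC1 and 36.9% in HEPs, while PHC3 held 1.26% and 10.1%. In HPCs PHC1 again had the largest share, 51.0%, with 27.9% for PHC2 and 21.1% for PHC3.

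Among the subunits of variant PRC1, which works without a CBX protein, genes moved in both directions. AUTS2 was at 39.7, 23.6, 12.5 and 2.04 FPKM and fell by 3.74 from BC1 to HPCs. KDM2B, which binds unmethylated CpG islands, was at 47.5, 28.1, 19.2 and 21.6 FPKM and fell by 1.10. YAF2, a partner of RING1 and RNF2, was at 3.88, 18.3, 23.7 and 48.0 FPKM and rose by 3.33, and BCORL1, a corepressor, was at 1.70, 5.53, 21.5 and 22.7 FPKM and rose by 3.13. Like CBX2, AUTS2 was lower in each population than in the one before, and like BMI1, YAF2 and BCORL1 were lowest in BC1.

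**Figure D4:**
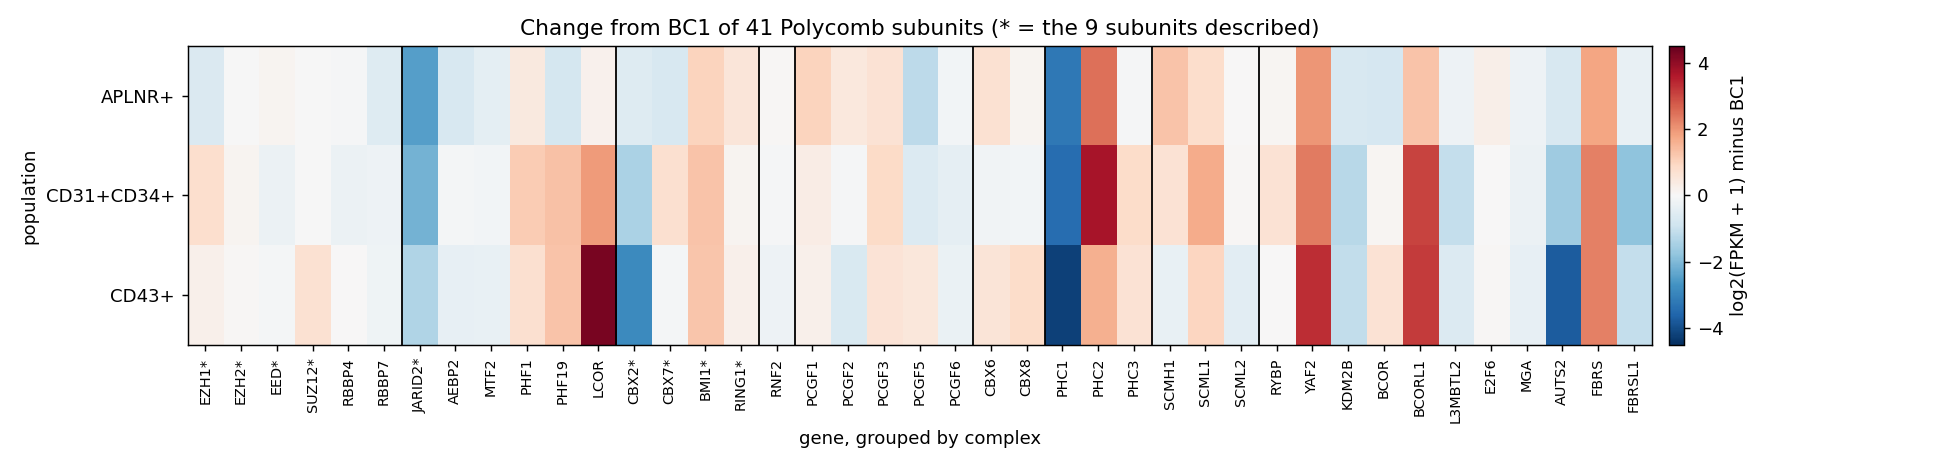
Change from BC1 in log2(FPKM + 1) (colour) of 41 Polycomb subunit genes (columns, grouped by complex, asterisks on the 9 genes described) in APLNR+ cells, CD31+CD34+ HEPs and CD43+ HPCs (rows). Blue is lower and red is higher than BC1; PHC1 reaches -4.22 and LCOR 4.27 in HPCs, and the EZH2, EED, RBBP4 and RNF2 columns stay pale.

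Genes that act with or against Polycomb were read for context. The H3K27 demethylase KDM6B was at 0.806, 13.5, 23.3 and 32.6 FPKM and rose by 4.22 from BC1 to HPCs, while KDM6A was at 23.9, 18.2, 7.96 and 10.5 FPKM and fell by 1.11. The mark of PRC1 is removed by the PR-DUB complex (BAP1 with ASXL1, ASXL2 or ASXL3) and by USP16, a separate enzyme. Of these 5 genes, 1 rose from BC1 to HPCs and none fell, where 15.2% of all genes rose and 18.9% fell. That gene was ASXL1, with 6.73, 18.5, 37.9 and 35.6 FPKM. Of 13 Trithorax-group genes, which encode activators that oppose Polycomb, KMT2A rose by 1.03 and WDR5 and DPY30 fell by 1.18 and 1.06. The shares of all genes were again 15.2% and 18.9%.

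HOX genes and the INK4 locus are textbook targets of Polycomb, and among 41 of them 9 reached 1 FPKM, of which 8 were HOXB genes. The summed HOXB FPKM was 0.222 in BC1, 72.1 in APLNR+ cells, 310.9 in HEPs and 142 in HPCs. In BC1 these 8 genes were at 0.115 FPKM or less, so they were kept through the later libraries alone and their rise follows from the filter. The largest rises from BC1 to HPCs were those of HOXB3, HOXB2 and HOXB9. HOXB3 and HOXB2 were highest in HEPs, at 170 and 42.0 FPKM. HOXB9 was at 14.9 FPKM in HEPs and highest in HPCs, at 23.8 FPKM. HOXB1 and HOXB13 stayed below 1 FPKM in every library, and no gene of the HOXA, HOXC or HOXD clusters reached 1 FPKM in any library. Whether Polycomb subunits have a part in this pattern was not tested.

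Cell-cycle genes were read because EZH2 is known to follow proliferation. Of 16 such genes, none was called from BC1 to APLNR+ cells, where 9.15% of all genes rose and 9.32% fell. From APLNR+ cells to HEPs MKI67 rose and 2 fell, where 13.0% of all genes rose and 11.4% fell. From HEPs to HPCs 3 fell, where 13.5% of all genes did. From BC1 to HPCs TYMS rose and CCNB1 and CCNE1 fell, where 15.2% of all genes rose and 18.9% fell. The summed FPKM of the 16 genes was 1521, 1247, 1054 and 1244 in order of day, beside an EZH2 level of 22.2 to 24.5 FPKM. The genes did not move as 1 group, so the sum does not stand for proliferation. MKI67, TOP2A and TYMS were highest in HEPs, at 40.2, 89.9 and 123 FPKM, while PCNA and MCM2 to MCM7 were lowest there. Of 11 reference genes, B2M rose by 3.08 from BC1 to HPCs and none fell, where 15.2% of all genes rose and 18.9% fell. The median change of the 11 was 0.26. In any comparison 3 of the 11 were called, 27.3% against 52.2% of all genes kept. Besides B2M these were ACTB, at 1888, 2235, 1032 and 3021 FPKM, and SDHA, at 32.2, 24.0, 53.5 and 51.1 FPKM. The part of cell-cycle and reference genes in the changes of the subunits was not tested.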

How the data were processed

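RNA-seq of 4 BC1 populations was analysed, with 1 library each. The authors deposited 1 table of FPKM values per gene. The submitters' processing notes name BWA, Bowtie, RSEM and the build hg19, with no roles or versions, but the gene IDs and positions in the table are those of GENCODE 29 on GRCh38, which was used here. TruSeq libraries were made from total RNA. No sample was left out and 0 expression columns were unused.

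Rows of 1 gene ID were summed, which left 58274 genes, of which 17137 with at least 1 FPKM in at least 1 library were kept. Changes were taken as differences of log2(FPKM + 1), called at 1 or more. With no replicates there was no p-value. Mapped fragments per library were recovered from FPKM steps of genes with 1 transcript of at least 1000 bases, where 93.6% to 95.6% of values came within 0.1 of a whole number. A member's fragments were then approximated from its median transcript length (protein-coding transcripts of GENCODE 29), and 95% Clopper-Pearson intervals were computed in scipy 1.17.1 (Python 3.11.15, numpy 2.4.6, pandas 2.3.3, matplotlib 3.10.9). These cover counting error only. The scripts were tested on simulated data.

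All members were described. In other lists, calls were counted and the 3 largest rises and 3 largest falls from BC1 to HPCs were named where called. Further list members were named as paralogs or partners of a member, after their values were seen. The nearest profiles were the 3 with the smallest root mean square difference. Members and lists were chosen with earlier results of these data known. Alternatives were the pseudocount (0.1 and 5), the filter (none and 5 FPKM), the threshold (0.5 and 2), TPM and median-of-ratios scaling, fragments from the longest transcript, the largest row of a gene ID and, added after the data were seen, summing SUZ12 with SUZ12P1 and BMI1 with COMMD3-BMI1. Some genes of these lists and families are not reported here, and shares and counts were taken without them.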

Additional observations from a re-analysis of the deposited data

How the results depend on the processing

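No paired analysis was possible because each population has 1 library, and leaving out a replicate was not possible for the same reason. The 9 subunits gave 144 changes recomputed under the 4 alternatives that can alter them (both pseudocounts and both scalings). Of these, 130 moved by no more than their counting error and 14 moved by more. That 0 of the called ones turned direction was fixed in advance. A pseudocount cannot turn a change, and the scaling factors were too near 1 (0.963 to 1.03 for median of ratios) to turn a called one. The filters and the choice of row cannot alter a member's change. With a pseudocount of 5 FPKM, 0 subunits rose from BC1 to APLNR+ cells, 0 from APLNR+ cells to HEPs and 0 from BC1 to HPCs, where 4.07%, 6.28% and 7.76% of all genes rose. With a pseudocount of 0.1 BMI1 rose by 1.26 at the first step and 1.54 from BC1 to HPCs, and EZH1 and CBX7 rose by 1.59 and 1.78 at the second step. With a threshold of 0.5, 2 subunits rose and 4 fell at the first step (21% and 21.1% of all genes), 1 fell at the second step (24.3%), 2 rose and 3 fell at the last step (17.4% and 27.3%) and 2 rose from BC1 to HPCs (27% of all genes). With a threshold of 2, 0 rose at the first step (2.68%), 0 rose at the second step (4.08%), 0 fell at the last step (4.32%), and from BC1 to HPCs 0 rose (5.37%) and 1 fell, CBX2 (6.77%). With median-of-ratios scaling 0 rose at the first step (8.49%), where BMI1 was lost, as it was when COMMD3-BMI1 was added (0 rose, 9.14%), an alternative chosen after seeing the data. TPM scaling put the median change of all genes at -0.17 from HEPs to HPCs and -0.13 from BC1 to HPCs. The falls of JARID2 at the first step and of CBX2 from BC1 to HPCs were called with both pseudocounts, all 3 thresholds and both scalings. With fragments from the longest transcript, the number of members whose counting interval excludes no change was 6, 8, 6 and 6 in the 4 comparisons, against 6, 7, 5 and 6. The same count was not taken over all genes, so it does not set the members apart from them. The spread between cultures is unknown for every gene.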
